A study of Mus musculus with 7 samples.

Results

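Integrins and laminins were followed through bulk RNA-seq of 2 mouse glioblastoma (GBM) models. The set held every gene of the count table whose symbol is that of an integrin alpha subunit, an integrin beta subunit or a laminin chain. This rule used names only and found 37 of 49492 genes, which were 18 alpha subunits, 8 beta subunits and 11 laminin chains. The 26 integrin subunits were divided by known partners and ligands into 8 of leukocytes, 1 of platelets, 4 laminin receptors, 4 collagen receptors, 7 receptors of matrix proteins with an RGD motif and 2 others.

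The NSCHRas-shp53 model was made in adult C57BL/6 mice by lentivirus injected beside the lateral ventricles, which gave resident neural precursors a constitutively active human HRAS oncogene and a short hairpin RNA against Trp53. Its 3 libraries came from RNA of undissociated tumor tissue. The NPCTKO model was made by in utero electroporation of embryonic neural progenitor cells with plasmids for Cas9 and guide RNAs against tumor suppressor genes, Trp53 and Nf1 among them, together with an EGFP or DsRed cassette. Its 4 libraries came from tumor cells that had been dissociated and sorted for that fluorescence. The labels gave strain C57BL/6 and an age of 3 months for all 7 samples. Loss or knockdown of Trp53 was shared by both models, and no library of normal brain was among the samples. Model and preparation changed together, so a difference between whole tissue and sorted cells cannot be told apart from a difference between the models. Fewer cells of a type and less RNA per cell also cannot be told apart in bulk samples.

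Integrins are receptors of an alpha and a beta subunit that join the cell surface to matrix proteins or to other cells, and signal to the cytoskeleton through talins, kindlins and focal adhesion proteins. Laminins are trimers of an alpha, a beta and a gamma chain and form, with type IV collagen and nidogens, the basement membranes on which vessels rest. In the brain, endothelial cells (ECs), mural cells and astrocyte endfeet lay down different laminin chains around vessels, while leukocytes use the Itgb2 family to adhere and to engulf complement-coated material.

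The 4 promoters that follow belong to genes on which the comparisons turn. Itgam and Itgax are neighbours on chromosome 7 and encode alpha subunits of leukocytes whose ratio differed between the models, and Lama5 and Lamb2 are the laminin chains called in every alternative fit that could use them. Each is the 250 bases before the start in the RefSeq promoter table of build GRCm38.p6, written 5′ to 3′ on the strand of the gene. Capitals mark a match to GAGGAAG, the core bound by PU.1, or to TGANTCA, the AP-1 site, on either strand.
Itgam, chr7:128062390-128062639, plus strand: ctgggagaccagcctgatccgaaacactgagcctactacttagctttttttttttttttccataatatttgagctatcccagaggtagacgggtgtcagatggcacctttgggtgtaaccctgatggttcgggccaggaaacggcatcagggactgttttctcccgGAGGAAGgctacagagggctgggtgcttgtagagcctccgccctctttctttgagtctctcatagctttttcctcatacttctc
Itgax, chr7:128129300-128129549, plus strand: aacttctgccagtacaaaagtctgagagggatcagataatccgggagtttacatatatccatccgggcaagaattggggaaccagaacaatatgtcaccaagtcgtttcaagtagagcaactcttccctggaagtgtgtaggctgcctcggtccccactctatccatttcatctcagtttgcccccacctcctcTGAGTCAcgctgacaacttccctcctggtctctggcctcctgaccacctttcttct
Lama5, chr2:180225860-180226109, minus strand: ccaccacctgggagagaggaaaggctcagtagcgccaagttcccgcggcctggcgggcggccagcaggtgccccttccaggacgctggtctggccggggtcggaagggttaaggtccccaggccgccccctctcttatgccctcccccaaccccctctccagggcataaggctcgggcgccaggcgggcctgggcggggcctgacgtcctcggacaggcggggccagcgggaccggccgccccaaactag
Lamb2, chr9:108479612-108479861, plus strand: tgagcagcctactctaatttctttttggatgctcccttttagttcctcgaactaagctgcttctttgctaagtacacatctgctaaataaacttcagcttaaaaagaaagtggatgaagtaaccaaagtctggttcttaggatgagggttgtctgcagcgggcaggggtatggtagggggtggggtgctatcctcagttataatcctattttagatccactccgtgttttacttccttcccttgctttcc

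Itgam held 1 GAGGAAG that began 84 bases before the start, and Itgax held 1 TGANTCA that began 56 bases before it. Lama5 and Lamb2 held neither, and their windows differed in GC content, with 72.4% in Lama5 and 43.6% in Lamb2. Of 37 genes, 23 had an entry in the table, and 7 of these held GAGGAAG and 1 held TGANTCA. Among all 27025 genes of the table, 12.004% held GAGGAAG and 7.82% held TGANTCA in at least 1 of their promoters. These matches describe letters only.

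The total counts were 17529054 to 19840860 in NSCHRas-shp53 libraries and 15002873 to 19247326 in NPCTKO libraries. At that depth 3 counts equalled 0.130 to 0.164 CPM (counts scaled to library size) in NSCHRas-shp53 libraries and 0.156 to 0.234 CPM in NPCTKO libraries. NPCTKO 1 and 2 stood apart from the other libraries. Their deviation from the mean of all libraries ran with the GC content of genes (Spearman correlation across genes of 0.573 and 0.499), against -0.370 and -0.357 in NPCTKO 3 and 4. The correlation of log2 CPM was 0.980 between NPCTKO 1 and 2 and 0.946 between NPCTKO 3 and 4, but 0.818 to 0.880 across these pairs. The summed CPM of 14 microglia and macrophage markers was 2740 to 7755 in NSCHRas-shp53 libraries. It was 20732 and 25584 in NPCTKO 1 and 2, 503 in NPCTKO 3 and 3390 in NPCTKO 4, although these cells had been sorted as tumor cells. P2ry12, one of these markers, was at 0 counts in all 7 libraries. The paper reports that cells with OLIG2 were fewer in NSCHRas-shp53 GBMs than in those of NPCTKO. Markers of oligodendrocyte precursors therefore cannot check how pure the sorted tumor cells were. Their sum was 404 to 794 CPM in NSCHRas-shp53 libraries and 2167 to 5263 CPM in NPCTKO libraries. Nes, a marker of neural stem cells, went the other way (log2 fold change 2.33, edgeR adjusted p = 0.027). It had 728, 764 and 866 CPM in NSCHRas-shp53 libraries, against 100.4, 52.9, 215 and 256 CPM in NPCTKO libraries. Sox2 was at 0 counts throughout. Both Sox2 and P2ry12 lie wholly inside the span of another gene. Their missing counts may therefore come from the counting, and do not show that either gene was silent. The paper reports staining for SOX2 in most tumor cells of the NPCTKO model.

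Whether subunits differed between the models was asked gene by gene with the quasi-likelihood test of edgeR. Of 37 members, 36 passed the filter on low counts. Itgb6, an epithelial partner of Itgav, did not, with 19, 3 and 14 counts in NSCHRas-shp53 libraries and 0, 0, 4 and 3 counts in NPCTKO libraries. At an adjusted p under 0.05, 12 of the 36 tested members were higher in NSCHRas-shp53 GBMs, against 7.77% of all 16091 genes tested. Only Itga9 was lower, against 5.28% of all genes. Over all genes, 1251 were higher and 850 were lower, and limma on FPKM scaled to equal sums gave 1314 and 401. The median log2 fold change was 0.71 over the members and -0.10 over all genes. In 16 members every NSCHRas-shp53 library lay above every NPCTKO library, where 16.3% of all genes did so, and in 1 member every library lay below, where 14.9% did.

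The called members were laminin chains and integrins outside the leukocyte class. Of 11 laminin chains 6 were higher, with a median log2 fold change of 2.35, and of 17 tested integrins outside the leukocyte class 6 were higher and 1 was lower, with a median of 0.98. None of 8 leukocyte integrins was called in the main edgeR fit, and their median was -1.65. Of these 8, 3 were lower and 0 higher at an unadjusted p under 0.05, DESeq2 called 3 lower, against 11.9% of all genes, and limma on log2(FPKM + 1) called 0. The count of members called higher depended on single libraries, being 6, 5 and 4 without NSCHRas-shp53 1, 2 or 3 in turn, against 4.21%, 2.76% and 2.51% of all genes, and 8 without NPCTKO 1, against 5.56%. Itga9 was not called without NSCHRas-shp53 2 or 3, or without NPCTKO 1 or 2, and 5 members were called lower without NPCTKO 3, against 7.62% of all genes. Without NPCTKO 1 and 2 together, 11 members were higher, against 8.95% of all genes, and 1 was lower, against 7.40%.

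**Figure D1:**
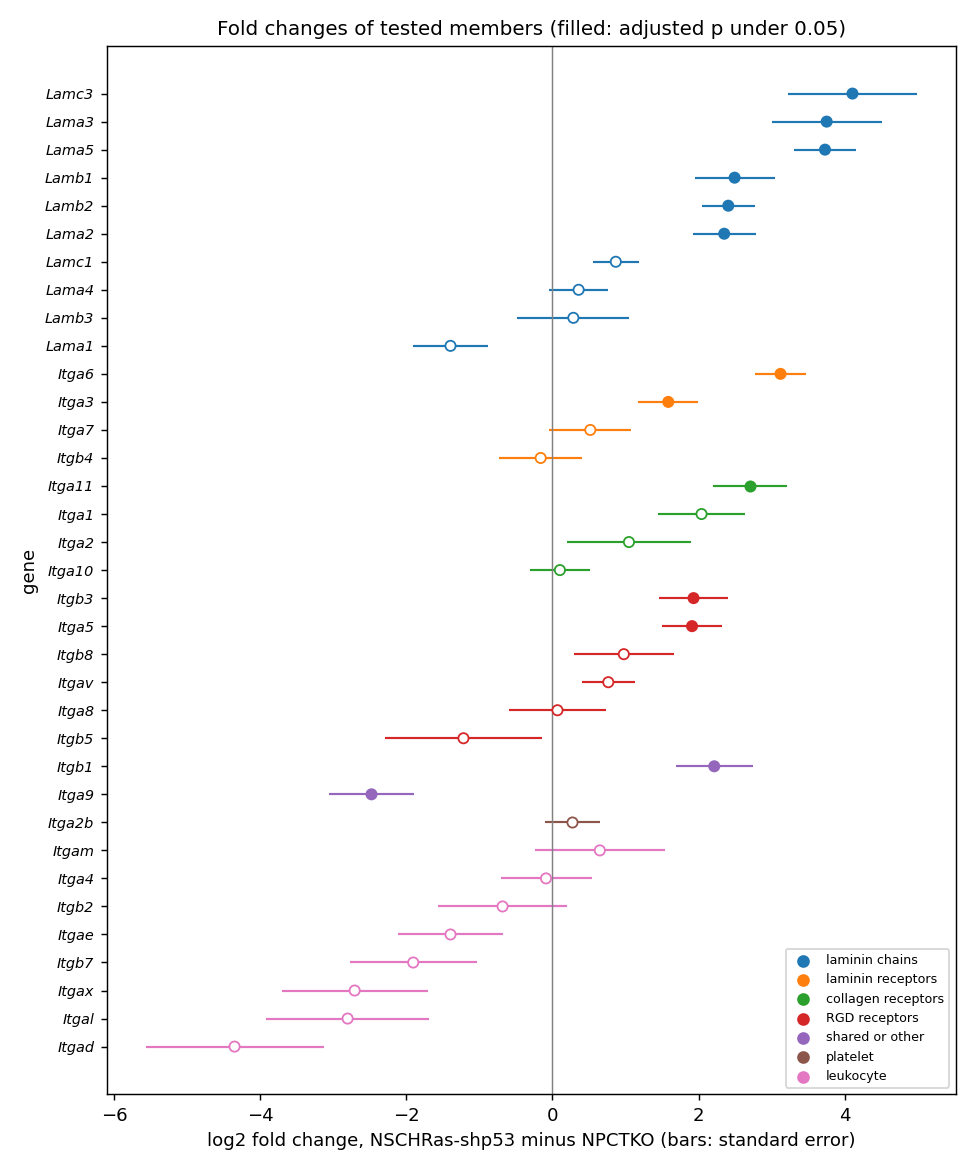
Log2 fold change (x axis, NSCHRas-shp53 minus NPCTKO, bars are the standard error of the edgeR fit) of the tested members reported here (y axis), coloured by class and filled where the adjusted p was under 0.05. The 6 called laminin chains lie between 2.35 and 4.10, Itga9 is the only filled point below 0, and all 8 leukocyte points are open.

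Of 5 laminin alpha chains 3 were higher. Lama5 encodes the alpha chain found in mature vessel and epithelial basement membranes and spans chr2:180176373-180225859 on the minus strand in mm10. It had 231, 322 and 156 CPM in NSCHRas-shp53 libraries, against 29.1, 16.9, 13.6 and 11.8 CPM in NPCTKO libraries. Every NSCHRas-shp53 library lay far above the highest NPCTKO library, and NPCTKO 1 was the highest of its group. Its log2 fold change was 3.73 ± 0.43 (SE), with an edgeR adjusted p of 0.0035.

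Lama2, the alpha chain of muscle and of perivascular basement membranes in the brain, had 31.6, 14.2 and 30.2 CPM in NSCHRas-shp53 libraries, against 6.04, 3.43, 3.74 and 6.64 CPM in NPCTKO libraries. The groups did not overlap, and NSCHRas-shp53 2 was the lowest of its group. This gave a log2 fold change of 2.35 ± 0.43 (edgeR adjusted p = 0.013), and the call was lost without NSCHRas-shp53 3 (adjusted p = 0.068). Lama3, an alpha chain of epithelia, had 34.5, 20.3 and 7.86 CPM in NSCHRas-shp53 libraries, against 0.54, 1.48, 0.78 and 3.38 CPM in NPCTKO libraries. The NSCHRas-shp53 libraries differed among themselves more than in Lama5 but remained above all NPCTKO libraries. Its log2 fold change was 3.75 ± 0.75 (edgeR adjusted p = 0.017), with an adjusted p of 0.062 when NSCHRas-shp53 1 or NSCHRas-shp53 2 was left out.

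The other alpha chains behaved differently. Lama4, the alpha chain that ECs make in most vessels, had 86.6, 78.7 and 123 CPM in NSCHRas-shp53 libraries, against 66.5, 36.2, 119 and 78.2 CPM in NPCTKO libraries. These ranges overlapped, with a log2 fold change of 0.36 ± 0.41 (edgeR adjusted p = 0.59). Lama1, the alpha chain of the early embryo and of the pial basement membrane, had 8.29, 7.24 and 9.89 CPM in NSCHRas-shp53 libraries, against 19.1, 8.49, 21.9 and 39.6 CPM in NPCTKO libraries. It was the only laminin chain with a negative estimate, and NPCTKO 2 fell within the NSCHRas-shp53 range. edgeR put the log2 fold change at -1.39 ± 0.51 (edgeR adjusted p = 0.11), and without NPCTKO 1 and 2 it was -1.82 with an adjusted p of 0.021. The CPM ratio of Lama5 to Lama4 was 2.67, 4.09 and 1.26 in NSCHRas-shp53 libraries and 0.437, 0.467, 0.114 and 0.150 in NPCTKO libraries, a ratio chosen after the values were seen and given without a test.

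Both widely used beta chains were higher in NSCHRas-shp53 GBMs. Lamb2, the beta chain of vessels, glomeruli and neuromuscular junctions, had 126, 141 and 134 CPM in NSCHRas-shp53 libraries, against 35.2, 31.0, 13.3 and 21.6 CPM in NPCTKO libraries. The NSCHRas-shp53 libraries lay close together, with a mean of 134 ± 7.59 CPM (SD, n = 3), and did not overlap with NPCTKO. The log2 fold change was 2.41 ± 0.36 (edgeR adjusted p = 0.0072). Lamb1, the beta chain of most embryonic laminins, had 233, 177 and 369 CPM in NSCHRas-shp53 libraries, against 36.5, 14.4, 54.9 and 78.6 CPM in NPCTKO libraries. All NSCHRas-shp53 libraries were higher, with NPCTKO 2 the lowest of all 7. Its log2 fold change was 2.49 ± 0.55 (edgeR adjusted p = 0.023). That call was lost without NSCHRas-shp53 1 or 2 (adjusted p = 0.060 each), NSCHRas-shp53 3 (0.10) or NPCTKO 1 (0.056). Lamb3, the beta chain of skin, was near the detection limit at 0.46 to 3.37 CPM in NSCHRas-shp53 libraries and 0.78 to 2.08 CPM in NPCTKO libraries, and 44.9% of its span is overlapped by other genes.

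Of the gamma chains, Lamc1 is the partner in most laminin trimers and had the smallest estimate. It had 305, 174 and 274 CPM in NSCHRas-shp53 libraries, against 163, 96.8, 140 and 150 CPM in NPCTKO libraries. The groups did not overlap, but the log2 fold change of 0.87 ± 0.32 did not pass (edgeR adjusted p = 0.11). Lamc3, a gamma chain known from retina and cortex, had 11.3, 2.13 and 10.2 CPM in NSCHRas-shp53 libraries, against 1.01, 0.54, 0.10 and 0.18 CPM in NPCTKO libraries. NPCTKO 3 was below the level of 3 counts, and NSCHRas-shp53 2 was well below the other libraries of its model. This gave a log2 fold change of 4.10 ± 0.88 (edgeR adjusted p = 0.022), and the adjusted p was 0.067 without NSCHRas-shp53 1 and 0.090 without NSCHRas-shp53 3.

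**Figure D2:**
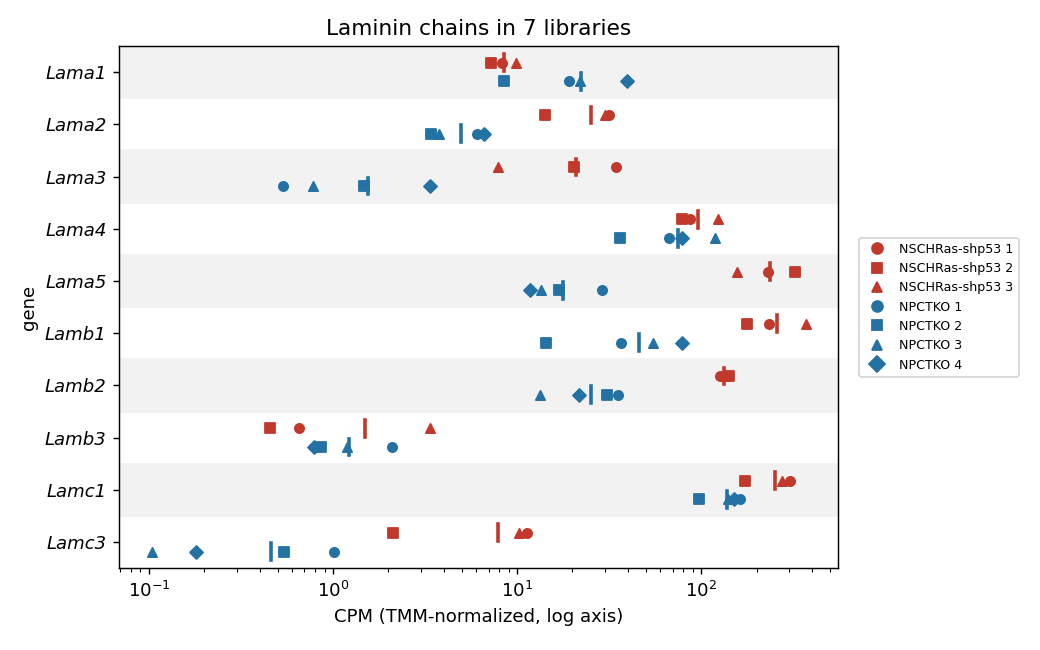
CPM on a log axis (x) of the laminin chains reported here (y) in each library, with NSCHRas-shp53 in red above NPCTKO in blue, marker shapes for the libraries and a vertical bar for the group mean. Red points lie to the right of all blue points in 7 chains, while Lama1, Lama4 and Lamb3 overlap.

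Per length, in the deposited FPKM, Lama5 exceeded Lama4 in NSCHRas-shp53 1 and 2 but not in NSCHRas-shp53 3 or in any NPCTKO library. In NSCHRas-shp53 libraries Lamb1 had 37.4, 30.8 and 63.0 FPKM, Lama5 had 24.1, 46.3 and 17.2 FPKM, and Lama4 had 14.3, 23.4 and 21.6 FPKM. In NPCTKO libraries Lama4 was the highest alpha chain, with 14.9, 7.53, 19.9 and 13.4 FPKM, and Lama5 had 2.41, 1.51, 1.31 and 1.28 FPKM. The Lama5 row also carries the name of a microRNA gene, so its FPKM describe that locus. Lamc1 had 37.2, 23.0 and 35.5 FPKM in NSCHRas-shp53 libraries, against 20.0, 11.4, 17.7 and 17.8 FPKM in NPCTKO libraries. The deposited FPKM are not on a common scale between libraries. They summed to 972436 and 952516 in NPCTKO 1 and 2, but to 419433 and 469614 in NPCTKO 3 and 4. In NSCHRas-shp53 libraries they summed to 426939 to 553275.

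Receptors for laminin were higher in part. Itga6 pairs with Itgb1 or Itgb4 to bind laminins and marks stem-like cells in several tissues. Its span in mm10 is chr2:71745616-71858416 on the plus strand. It had 230, 126 and 227 CPM in NSCHRas-shp53 libraries, against 15.7, 24.1, 19.9 and 29.7 CPM in NPCTKO libraries. The lowest NSCHRas-shp53 library was far above the highest NPCTKO library, with group means of 194 ± 59.4 CPM (SD, n = 3) and 22.3 ± 6.00 CPM (SD, n = 4). edgeR put the log2 fold change at 3.12 ± 0.35 (edgeR adjusted p = 0.0033), and other genes overlap 11.4% of its span. Itga3, a second laminin receptor, had 34.7, 59.7 and 71.5 CPM in NSCHRas-shp53 libraries, against 12.2, 12.1, 22.0 and 27.3 CPM in NPCTKO libraries. The groups came close without overlapping, and the log2 fold change was 1.58 ± 0.41 (edgeR adjusted p = 0.039). This was the least stable of the calls, kept in 9 of 19 other fits and lost without NSCHRas-shp53 1, 2 or 3 (adjusted p = 0.054, 0.14 and 0.17) and without NPCTKO 1 or 2 (0.081 and 0.082).

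Itga7, a laminin receptor of muscle and glia, had 82.3, 111 and 121 CPM in NSCHRas-shp53 libraries, against 37.7, 28.3, 71.2 and 156 CPM in NPCTKO libraries. NPCTKO 4 was the highest of all 7, and the difference did not pass (edgeR adjusted p = 0.57). Itgb4, the hemidesmosome partner of Itga6, ranged from 15.5 to 18.1 CPM in NSCHRas-shp53 libraries and from 6.34 to 34.3 CPM in NPCTKO libraries.

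Collagen receptors had positive estimates in 4 of 4, and 1 was called. Itga11, a receptor for fibrillar collagen on mesenchymal cells, had 11.1, 10.1 and 11.2 CPM in NSCHRas-shp53 libraries, against 1.81, 0.62, 2.55 and 1.57 CPM in NPCTKO libraries. The NSCHRas-shp53 libraries were nearly equal and all above NPCTKO. The log2 fold change was 2.71 ± 0.50 (edgeR adjusted p = 0.014), and the call was lost without NSCHRas-shp53 2 (adjusted p = 0.054) or 3 (0.065). Itga1, which binds collagens of basement membranes and is found on mural cells and microvessels, had 66.5, 55.3 and 90.1 CPM in NSCHRas-shp53 libraries, against 7.99, 5.61, 34.0 and 20.998 CPM in NPCTKO libraries. It did not overlap between groups but narrowly missed the threshold, with a log2 fold change of 2.04 ± 0.60 (edgeR adjusted p = 0.058), and it was called without NPCTKO 3 (adjusted p = 0.019). Itga2, the collagen receptor of platelets and epithelia, had 10.9, 13.7 and 24.1 CPM in NSCHRas-shp53 libraries, against 2.95, 1.01, 20.3 and 7.06 CPM in NPCTKO libraries. Itga10, a receptor of cartilage, had 3.65, 5.62 and 5.01 CPM in NSCHRas-shp53 libraries, against 3.22, 4.36, 4.37 and 5.79 CPM in NPCTKO libraries. Both overlapped, and 39.7% of the span of Itga10 is shared with other genes.

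Of the receptors of RGD proteins, Itga5 and Itgb3 were called higher. Itga5, the alpha subunit of the main fibronectin receptor, had 275, 275 and 310 CPM in NSCHRas-shp53 libraries, against 81.6, 60.7, 37.7 and 125 CPM in NPCTKO libraries. The NSCHRas-shp53 libraries lay within a narrow range above every NPCTKO library. Its log2 fold change was 1.91 ± 0.41 (edgeR adjusted p = 0.021), with adjusted p of 0.056, 0.073 and 0.088 when NSCHRas-shp53 1, 2 or 3 was left out. Itgb3, the beta subunit of the vitronectin receptor and of the platelet fibrinogen receptor, had 68.5, 72.5 and 128 CPM in NSCHRas-shp53 libraries, against 26.5, 36.4, 22.5 and 8.69 CPM in NPCTKO libraries. The groups did not overlap and NPCTKO 4 was lowest. This gave a log2 fold change of 1.93 ± 0.47 (edgeR adjusted p = 0.034). Leaving out NSCHRas-shp53 1, 2 or 3 gave adjusted p of 0.066, 0.087 and 0.15, and leaving out NPCTKO 1 gave 0.063.

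Itgav, the alpha partner shared by Itgb3, Itgb5, Itgb6 and Itgb8, had 271, 321 and 277 CPM in NSCHRas-shp53 libraries, against 110, 114, 230 and 228 CPM in NPCTKO libraries. NPCTKO 3 and 4 lay just below the NSCHRas-shp53 range and NPCTKO 1 and 2 further down, and the log2 fold change of 0.76 ± 0.37 was not called (edgeR adjusted p = 0.20). Other genes overlap 26.8% of its span. Itgb8, whose receptor with Itgav frees active TGF-beta and which is made by astrocytes and neural progenitors, had 96.7, 127 and 107 CPM in NSCHRas-shp53 libraries, against 14.7, 17.8, 117 and 74.2 CPM in NPCTKO libraries. NPCTKO 3 reached the NSCHRas-shp53 range while NPCTKO 1 and 2 were far below it. Itgb5, a vitronectin receptor subunit, had 386, 191 and 259 CPM in NSCHRas-shp53 libraries, against 1092, 1308, 24.3 and 170 CPM in NPCTKO libraries. NPCTKO 1 and 2 were higher and NPCTKO 3 and 4 lower than all NSCHRas-shp53 libraries, so the estimate of -1.22 ± 1.08 had no settled sign (edgeR adjusted p = 0.48). Without NPCTKO 1 and 2 it was 1.56 (adjusted p = 0.19). Itga8, which binds nephronectin, ranged from 10.0 to 12.8 CPM in NSCHRas-shp53 libraries and from 2.33 to 19.5 CPM in NPCTKO libraries.

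Itgb1 is the beta subunit that most alpha subunits of non-leukocyte cells share, and it had the highest FPKM of the members in all 3 NSCHRas-shp53 libraries and in NPCTKO 3 and 4. In NPCTKO 1 and 2 Itgb5, Itgb2, Itgax and Itgal exceeded it, as did Itgam in NPCTKO 2. It had 273, 371 and 860 FPKM in NSCHRas-shp53 libraries, against 78.7, 83.0, 173 and 126 FPKM in NPCTKO libraries. In CPM it had 1177, 1744 and 3532 in NSCHRas-shp53 libraries, against 297, 319, 714 and 525 in NPCTKO libraries. On both scales the groups did not overlap and NSCHRas-shp53 3 was the highest library. The log2 fold change from the counts was 2.21 ± 0.53 (edgeR adjusted p = 0.031). The call was lost without NSCHRas-shp53 2 or 3 (adjusted p = 0.084 and 0.13) and without NPCTKO 1, 2 or 4 (0.076, 0.074 and 0.058).

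Itga9 pairs with Itgb1 and binds tenascin, osteopontin and Vcam1. It had 28.7, 5.27 and 18.2 CPM in NSCHRas-shp53 libraries, against 134, 102, 55.8 and 95.5 CPM in NPCTKO libraries. It was the one member whose NSCHRas-shp53 libraries all lay below NPCTKO, with NSCHRas-shp53 2 the lowest. edgeR put the log2 fold change at -2.48 ± 0.58 (edgeR adjusted p = 0.030). Without NSCHRas-shp53 2 or 3 the adjusted p was 0.062 and 0.12, and without NPCTKO 1 or 2 it was 0.061 and 0.056. Itga2b, the alpha subunit of the platelet fibrinogen receptor, had 14.1, 18.7 and 11.6 CPM in NSCHRas-shp53 libraries, against 9.74, 17.8, 8.94 and 12.4 CPM in NPCTKO libraries, which overlapped.

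**Figure D3:**
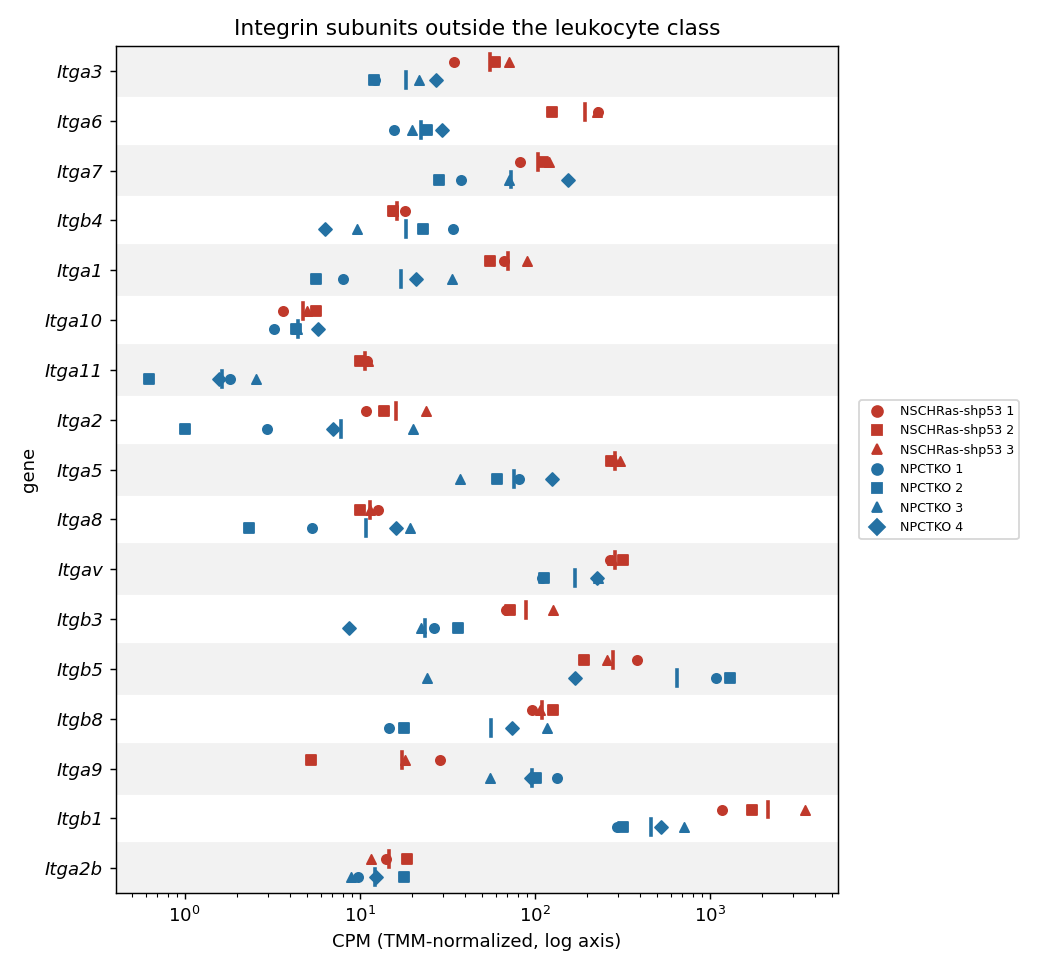
CPM on a log axis (x) of the 17 tested integrin subunits outside the leukocyte class (y), with NSCHRas-shp53 in red above NPCTKO in blue, marker shapes for the libraries and a vertical bar for the group mean. Red points lie to the right of all blue points in 8 subunits, among them Itga6 and Itgb1, and to the left in Itga9, while Itgb5 has NPCTKO 1 and 2 on the right and NPCTKO 3 on the left.

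All 8 leukocyte integrins overlapped between the models. The alpha subunits Itgam (chr7:128062640-128128160), Itgax (chr7:128129547-128150657) and Itgad (chr7:128154376-128223816) lie side by side on the plus strand in mm10, and Itgal (chr7:127296260-127335138) lies on the same chromosome. Itgb2, the beta subunit common to Itgal, Itgam, Itgax and Itgad, had 239, 142 and 212 CPM in NSCHRas-shp53 libraries, against 614, 484, 21.2 and 151 CPM in NPCTKO libraries. Itgam, the complement receptor subunit of microglia, macrophages and neutrophils, had 418, 186 and 325 CPM in NSCHRas-shp53 libraries, against 279, 428, 17.1 and 66.9 CPM in NPCTKO libraries. For both genes NPCTKO 3 was the lowest library and the groups overlapped. The log2 fold changes were -0.68 ± 0.89 for Itgb2 and 0.65 ± 0.89 for Itgam (edgeR adjusted p = 0.64 and 0.66). Without NPCTKO 1 and 2, Itgam was called higher, at 2.92 (adjusted p = 0.032).

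Itgax, a complement receptor subunit of dendritic cells and activated microglia, had 97.2, 38.5 and 59.3 CPM in NSCHRas-shp53 libraries, against 766, 725, 29.7 and 177 CPM in NPCTKO libraries. Itgal, which binds Icam1 and is used by lymphocytes and myeloid cells to cross vessel walls, had 32.7, 34.7 and 72.1 CPM in NSCHRas-shp53 libraries, against 641, 552, 15.3 and 89.7 CPM in NPCTKO libraries. Itgad, a myeloid alpha subunit, had 0.87, 0.66 and 0.39 CPM in NSCHRas-shp53 libraries, against 25.6, 22.6, 0.68 and 3.68 CPM in NPCTKO libraries. In these 3 genes NPCTKO 1 and 2 were high and NPCTKO 3 lay within or below the NSCHRas-shp53 range. The log2 fold changes were -2.71 ± 1.00 for Itgax, -2.80 ± 1.12 for Itgal and -4.35 ± 1.22 for Itgad. None passed in the main edgeR fit (adjusted p = 0.11, 0.13 and 0.0504). Without NPCTKO 3 all of them were called lower (edgeR adjusted p = 0.019, 0.027 and 0.013). Itgad was called lower in 7 of 19 other fits, among them edgeR with RLE factors and edgeR without a filter. Itgax and Itgal were called lower in 2 of 19. Other genes overlap 28.3% of the span of Itgad.

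Itgb7, which guides lymphocytes to the gut, had 5.62 to 13.9 CPM in NSCHRas-shp53 libraries and 4.58 to 79.6 CPM in NPCTKO libraries, and it was called lower without NPCTKO 3 (adjusted p = 0.043). Itgae, the partner of Itgb7 that binds E-cadherin, had 3.44 to 6.09 CPM in NSCHRas-shp53 libraries and 3.44 to 19.9 CPM in NPCTKO libraries. Itga4, which binds Vcam1 with Itgb1 or Itgb7, had 27.3, 10.3 and 37.9 CPM in NSCHRas-shp53 libraries, against 19.3, 11.8, 19.1 and 56.9 CPM in NPCTKO libraries. It was the one leukocyte member in which NPCTKO 1 and 2 did not both exceed NPCTKO 3 and 4.

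Alpha subunits were also set against each other within each library. The CPM ratio of Itgax to Itgam was 0.232, 0.207 and 0.183 in NSCHRas-shp53 libraries, against 2.75, 1.69, 1.74 and 2.64 in NPCTKO libraries. The ratio of Itgal to Itgam was 0.078, 0.187 and 0.222 in NSCHRas-shp53 libraries, against 2.30, 1.29, 0.897 and 1.34 in NPCTKO libraries. Neither of these 2 ratios overlapped between the models, and NPCTKO 3 kept the NPCTKO side although its macrophage markers were lowest. Against the summed macrophage markers, Itgam stood at 5.39%, 6.78% and 9.99% in NSCHRas-shp53 libraries and at 1.35%, 1.67%, 3.40% and 1.97% in NPCTKO libraries. Itgax stood at 1.25%, 1.41% and 1.83% in NSCHRas-shp53 libraries and at 3.70%, 2.83%, 5.91% and 5.22% in NPCTKO libraries. Taken this way Itgal overlapped, at 0.421% to 2.22% in NSCHRas-shp53 libraries and 2.16% to 3.09% in NPCTKO libraries. Itgb2 also overlapped, at 3.09% to 6.53% in NSCHRas-shp53 libraries and 1.89% to 4.46% in NPCTKO libraries. Itgb5, placed among the RGD receptors, had a near-constant share in NPCTKO, at 4.97%, 6.98% and 7.98% in NSCHRas-shp53 libraries and 5.26%, 5.11%, 4.83% and 5.01% in NPCTKO libraries. These ratios were chosen after the values were seen and carry no test.

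**Figure D4:**
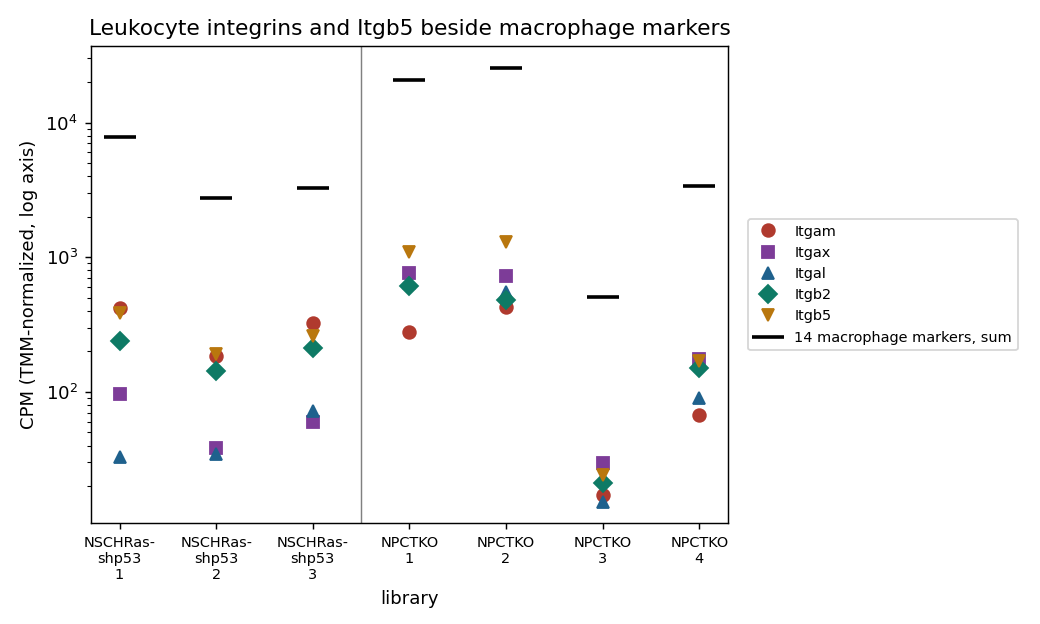
CPM on a log axis (y) of Itgam, Itgax, Itgal, Itgb2 and Itgb5 and, as black bars, the sum of 14 macrophage markers, in each library (x). Itgam lies above Itgax and Itgal in the 3 NSCHRas-shp53 libraries and below Itgax in the 4 NPCTKO libraries, and all 5 genes are lowest in NPCTKO 3.

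The pairs inside NPCTKO were apart in members about as often as in all genes. In 14 of 36 members NPCTKO 1 and 2 both exceeded NPCTKO 3 and 4, where 37.9% of all genes did so, and in 13 both were below, where 36.3% were. Among leukocyte integrins 7 of 8 had NPCTKO 1 and 2 above, as did Itgb5, Itgb3, Itgb4, Itga9, Lama5, Lamb2 and Lamc3. Itgb1, Itgav, Itgb8, Itga1 and Lamb1 were among those with NPCTKO 1 and 2 below. In NPCTKO 1 and 2 the markers of B and plasma cells summed to 1613 and 534 CPM, against 12.5 and 3.98 CPM in NPCTKO 3 and 4. Jchain alone had 1344 and 346 CPM in NPCTKO 1 and 2. Other leukocyte lists split the same way. In the same order of libraries, granulocytes and monocytes had 556 and 394 against 10.5 and 75.9 CPM. Dendritic cells had 79.4 and 111 against 9.88 and 30.2 CPM, and T and NK cells 63.1 and 58.0 against 10.7 and 14.1 CPM. The part of any of these cells in the levels of leukocyte integrins was not tested.

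Summed markers of mural cells, endothelial cells, astrocytes and neurons were higher in every NSCHRas-shp53 library than in every NPCTKO library, while those of fibroblasts and oligodendrocytes overlapped and those of oligodendrocyte precursors were lower. The summed CPM of 8 mural cell markers was 255 to 395 in NSCHRas-shp53 libraries and 20.0 to 34.9 in NPCTKO libraries, and 4 of 8 were called higher. The sum of 8 EC markers was 474 to 950 in NSCHRas-shp53 libraries and 27.4 to 240 in NPCTKO libraries, and 3 of 8 were higher. The sum of 7 astrocyte markers was 2699 to 3580 in NSCHRas-shp53 libraries and 175 to 532 in NPCTKO libraries, and 6 of 7 were higher. For 5 neuronal markers, all called higher, it was 182 to 477 in NSCHRas-shp53 libraries and 16.9 to 37.8 in NPCTKO libraries. Ependymal and choroid markers, with 1 of 4 called higher, did not overlap either. They summed to 46.3 to 438 CPM in NSCHRas-shp53 libraries and 6.29 to 33.9 CPM in NPCTKO libraries. Among them Ttr had 0.11, 0.10 and 417 CPM in NSCHRas-shp53 1, 2 and 3, against 0.052 to 16.5 CPM in NPCTKO libraries. Fibroblast markers summed to 354 to 779 CPM in NSCHRas-shp53 libraries and 322 to 532 CPM in NPCTKO libraries, with 3 of 6 higher and 1 lower. The lower 1 was Pdgfra, which made up most of each NPCTKO sum. It had 134, 99.0 and 121 CPM in NSCHRas-shp53 libraries, against 339, 478, 477 and 277 CPM in NPCTKO libraries. The other 5 fibroblast markers had positive estimates, so the overlap of the sums rests on Pdgfra. Oligodendrocyte markers summed to 952 to 7243 CPM in NSCHRas-shp53 libraries and 797 to 5002 CPM in NPCTKO libraries. Of 6 markers of oligodendrocyte precursors 5 were called lower. Beside the calls in these lists, 7.77% of all genes were higher and 5.28% lower in the same fit. No defining marker of these lists was at 0 in all libraries, and the part of any of these cell types in the higher laminin and integrin levels was not tested.

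Among partners of laminin in the basement membrane, Nid1 and Ntn4 were called higher. Of 14 such genes 2 were higher and none was lower by edgeR, against 7.77% and 5.28% of all genes. At an unadjusted p under 0.05, by DESeq2 and by limma 0 were lower as well. The 14 genes had a median log2 fold change of 0.79. Nid1, which links laminin to type IV collagen, had 229, 131 and 244 CPM in NSCHRas-shp53 libraries, against 40.6, 19.4, 39.7 and 19.7 CPM in NPCTKO libraries (log2 fold change 2.75, adjusted p = 0.0068). Ntn4, a laminin-related protein that binds gamma chains, had 49.7, 64.3 and 49.6 CPM in NSCHRas-shp53 libraries, against 12.1, 10.7, 16.6 and 11.3 CPM in NPCTKO libraries (log2 fold change 2.104, adjusted p = 0.0055). Col4a2, an alpha chain of type IV collagen, did not overlap but just missed the threshold (log2 fold change 1.32, edgeR adjusted p = 0.051), and Bcam, a receptor of Lama5, was not called (log2 fold change 2.01, edgeR adjusted p = 0.11).

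Of 22 tested genes of the adhesion machinery inside the cell, 5 were higher and 1 was lower, against 7.77% and 5.28% of all genes. Those higher were Actn1, an actin crosslinker, with 125, 285 and 352 CPM in NSCHRas-shp53 libraries against 42.6, 39.7, 32.6 and 62.0 CPM in NPCTKO libraries, and Parva, Parvb, Tgfb1i1 and Kank2. Parva binds integrin-linked kinase and had a log2 fold change of 1.89 (edgeR adjusted p = 0.011), and Kank2, a talin-binding protein, had 2.07 (edgeR adjusted p = 0.010). Lims2, an adaptor of integrin-linked kinase, went the other way. It had 16.6, 14.2 and 12.9 CPM in NSCHRas-shp53 libraries, against 235, 221, 84.6 and 99.9 CPM in NPCTKO libraries, with a log2 fold change of -3.46 (edgeR adjusted p = 0.0056).

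Of 11 tested ligands 3 were higher and none was lower by edgeR, against 7.77% and 5.28% of all genes. At an unadjusted p under 0.05, by DESeq2 and by limma 0 were lower as well. Fn1, fibronectin, had 1792, 1455 and 3408 CPM in NSCHRas-shp53 libraries, against 163, 107, 122 and 201 CPM in NPCTKO libraries (log2 fold change 3.90, edgeR adjusted p = 0.0039). Spp1, osteopontin, had 1113, 3924 and 3859 CPM in NSCHRas-shp53 libraries, against 18.3, 59.8, 22.0 and 146 CPM in NPCTKO libraries (log2 fold change 5.59, edgeR adjusted p = 0.0092). Fibronectin is the ligand of the receptor that Itga5 forms, and osteopontin is bound by receptors of Itgav and Itga9. Vtn, vitronectin, was higher by 4.44 on the log2 scale (edgeR adjusted p = 0.027), and Tnc, tenascin C, was not called (log2 fold change 2.99, edgeR adjusted p = 0.063). Receptors of Itgav activate latent TGF-beta. Of 8 genes for TGF-beta ligands or for proteins that store or present their latent form, 4 had positive and 4 had negative estimates. By edgeR 3 were higher and none was lower, against 7.77% and 5.28% of all genes. These were the binding proteins Ltbp1 (log2 fold change 2.98, edgeR adjusted p = 0.0087) and Ltbp3 (1.23, adjusted p = 0.027), and the anchor Lrrc32 (3.40, adjusted p = 0.030). Tgfb2 was not called (2.03, adjusted p = 0.11).

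Of the 13 called members, Itga6 and Lamb2 were called in all 19 other fits, and Lama5 in all 15 that could use it. Lama2 was called in 18 and Lama3 in 17 of 19. None of the 13 changed sign in any of these fits.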

How the data were processed

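RNA from 3 NSCHRas-shp53 and 4 NPCTKO tumor samples was poly(A)-selected and sequenced without keeping strand. The authors trimmed reads with cutadapt (version 1.16 in the submitters' processing notes), aligned them to mm10 with TopHat2 2.1.1 and deposited raw read counts per gene. The sources used here name no counting tool. The length column equals the genomic span, introns included, in 49399 of 49399 rows with 1 span, so reads within introns may be among the counts. As strand was not kept, reads of overlapping genes cannot be separated by it. The authors ran Cufflinks 2.2.1 for the deposited FPKM values, where a row can carry several gene names. FPKM was used to set levels of genes side by side and for alternatives; the rows of Itga1, Itga10 and Lama5 are shared with another gene and entered no FPKM test.

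Counts were fitted with edgeR 4.0.16 (R 4.3.3; TMM scaling, filterByExpr, quasi-likelihood F test) over all 7 libraries without covariates, with Benjamini-Hochberg adjustment over 16091 genes. DESeq2 1.42.0 and limma 3.58.1, other scalings, filters and pseudocounts, single libraries left out and a replicate block were alternatives, and the tests were tried on simulated data. CPM are TMM-scaled. Nothing says whether samples came from separate animals, so p-values measure the spread between these samples, which may be technical. Depth was 15002873 to 19840860 counts per library, and the level of 3 counts covers counting error only.

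Members and lists were chosen with earlier results of these data known. Values in every library were to be given for called members, for members without overlap between the models if the higher model averaged 5 CPM or more, and for the 3 of each class highest in FPKM, and from each pathway list the 4 genes of smallest p were to be named. Itgal, Itgad, Itgb8, Lama1, Itga4, Parvb, Tgfb1i1 and the ratios between genes were added after their values were seen. Values of 1 member are not reported here, although counts over the members include it.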

Additional observations from a re-analysis of the deposited data

Results flagged for a closer look

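In the 4 NPCTKO libraries the CPM of Itga4, an alpha subunit that binds Vcam1, was 56.9 in NPCTKO 4, against 11.8 to 19.3 in the other 3. The gap to the nearest library was 0.833 of the whole range, above Dixon's 95% critical value for 4 samples. It was the 1 value so far from its group among 37 members examined, and chance alone marks about 1 in 20 groups.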

How the results depend on the processing

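Of 13 called members, 3 were called in every alternative that could use them, and none changed sign. The call of any other member depended on at least 1 alternative. Scaling by library totals only moved the median log2 fold change of all genes by 0.18, leaving out NPCTKO 1 and 2 by 0.14, the replicate block by 0.14, and FPKM scaled to equal sums by 0.25. The cause of the changes given here was not tested.

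The number of genes called, 2101, was 3946 with DESeq2, and 539 to 2595 when 1 library was left out. Members called higher, 12, were 4 to 13 when 1 library was left out, against 2.51% to 8.75% of all genes, and 9 to 14 otherwise. DESeq2 gave the 14 and called 12.6% of all genes higher. Limma on FPKM scaled to equal sums gave the 9 and called 8.24% higher. Members called lower, 1, were 0 to 5 when 1 library was left out, against 0.751% to 7.62% of all genes. They were 5 with DESeq2, against 11.9% of all genes. They were 2, with Itgad added, in fits that called 2.51% to 8.75% of all genes lower. These fits used RLE factors, no filter, limma on log2(FPKM + 0.1), the GC and length correction and limma on FPKM scaled to equal sums. These last 2 alternatives were chosen after seeing the data.

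The replicate block gave 1041 called genes, 10 members higher and 0 lower, against 4.46% and 2.01% of all genes. Same-numbered samples had correlations of deviations of 0.269, -0.193 and 0.183, and not every sample correlated best with its own number. So few values cannot decide whether the numbers pair the samples.

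Estimates of 11 members that were not called changed sign, and 0 of these 36 values was called. Without NPCTKO 1 and 2 the log2 fold changes were -0.059 for Itga10, -0.078 for Itga7, -0.62 for Itga8, 0.25 for Itgae, 1.24 for Itgb2, 1.06 for Itgb4, 1.56 for Itgb5, 0.012 for Itgb7 and -0.0083 for Lama4. With limma on log2(FPKM + 1), filtered or not, they were 0.18 for Itgb2, 0.077 for Itgb4 and 0.081 for Itgb5. On log2(FPKM + 0.1) they were 0.21 for Itgb2, 0.14 for Itgb4, 0.11 for Itgb5 and -0.061 for Lamb3. On FPKM scaled to equal sums they were 0.46 for Itgb2, 0.36 for Itgb4 and 0.36 for Itgb5. With library totals only they were 0.022 for Itga4 and 0.19 for Itgb4. With the GC and length correction they were -0.057 for Itga8 and 0.22 for Itgb4. With the replicate block they were 0.44 for Itga4 and -0.34 for Lamb3. With 1 library left out they ran from -0.028 to 0.30 for Itga10, -0.50 to 0.59 for Itga4, -0.24 to 0.51 for Itga8, -0.45 to 0.37 for Itgb4 and -1.13 to 0.72 for Lamb3.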
